A study of Mus musculus with 2 samples.

Results

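The cells described here are the cells of the murine retinal pigment epithelium (RPE) with the highest summed level of Igfbp2, Sostdc1, Sfrp5, Pon1 and Cldn10. They number 576 of the 4072 cells that met the quality criteria, and 5838 cells were deposited in all. Single RPE cells of 2 mice, R1 and R2, had been profiled on the 10x Genomics droplet platform, which counts each captured transcript once by its unique molecular identifier (UMI). Both were male C57BL/6J mice without a stated genetic change or treatment, at postnatal day 36 by the protocol and 4 to 5 weeks of age by the sample labels. RPE sheets of the left and right eye of each animal were combined and dissociated, and viable cells (DAPI-negative, calcein-positive) were sorted, so regions of the eye were not kept apart. R1 held 2844 deposited cells with 26034378 UMIs, and R2 held 2994 cells with 29732969 UMIs.

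The RPE is the pigmented monolayer between the photoreceptors and the choroid. It recycles retinoids for vision, engulfs shed photoreceptor membrane, moves ions, nutrients and lipids, and secretes growth factors and matrix proteins toward both sides. IGFBP2 binds insulin-like growth factors, SOSTDC1 antagonizes bone morphogenetic protein (BMP) and Wnt signals, SFRP5 is a secreted Wnt antagonist, PON1 is a lipoprotein-bound esterase and lactonase, and CLDN10 is a tight junction claudin that forms ion pores. BMPs are bound outside the cell by antagonists such as noggin, and receptor activation induces the ID proteins.

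Cells were kept with at least 500 genes, at most 5% mitochondrial UMIs, at least 5% of UMIs from Ttr (the transthyretin transcript, abundant in RPE) and at least 5000 UMIs. These criteria left 2127 cells of R1 and 1945 of R2. The score of a cell was its UMIs of the 5 genes per 10000 UMIs. Members, called score-high cells below, were in the top 15% of their mouse by this score and outside the top 15% by a second score, the sum of Serpine3, Wfikkn2, Htr3a, Ramp2, Upk3b and Ggt1. They were 309 cells of R1 (14.53%) and 267 cells of R2 (13.73%). The reference was all other cells that met the criteria, 1818 and 1678 cells, and included the cells that were high in the second score only (309 and 267 cells, called Serpine3-score-high) and the 10 and 25 cells that were high in both. Among the top 15% by the first score, 3.13% of the cells in R1 and 8.56% in R2 were also in the top 15% by the second.

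The scores of the 5 genes formed a continuous range, and the score-high cells are its upper end, not a separate type. The median score was 45.8 UMIs per 10000 in score-high cells of R1 and 23.8 in its reference, and 42.8 and 24.9 in R2. The lowest members scored 39.84 and 39.85 in R1 and 38.27 and 38.33 in R2, and the cells just outside scored 39.81 and 39.79 in R1 and 38.26 and 38.26 in R2. Within 10% of the threshold lay 254 cells of R1 and 298 of R2, among them 34.6% and 43.1% of the members. When each cell's UMIs were divided at random into 2 parts of equal expected size, 54.0% of the members chosen from the first part in R1 and 48.1% in R2 were also members by the second.

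**Figure D1:**
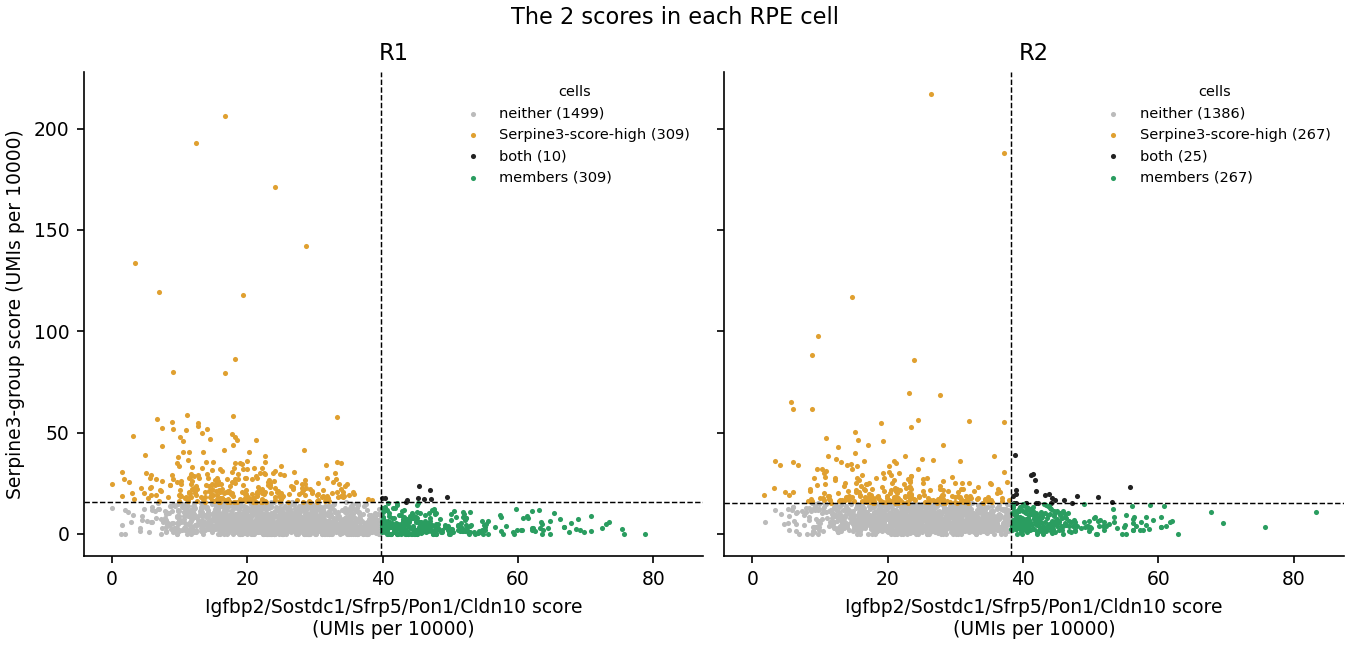
Each point is a cell, placed by the score of the 5 genes (x axis) and the second score (y axis), both in UMIs per 10000, with 1 panel per mouse and dashed lines at the top 15% of each score. The 309 and 267 members in green continue the range of the grey cells with no gap at the threshold, and 10 and 25 cells pass both thresholds.

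All 5 genes were higher in score-high cells, as the rule requires, and their values are a description without a test. Igfbp2 was at 6.40 UMIs per 10000 in score-high cells of R1 against 2.54 in the reference, and at 4.73 against 2.26 in R2. Sostdc1 was at 14.4 against 7.51 in R1 and 13.1 against 7.25 in R2. Sfrp5 was at 2.42 against 1.22 in R1 and 2.55 against 1.48 in R2. Igfbp2 had the largest ratio of the 5 genes in each mouse, 2.52 in R1 and 2.09 in R2. Pon1 was at 23.4 against 13.1 in R1 and 23.3 against 14.1 in R2, and Cldn10 at 1.203 against 0.546 and 1.10 against 0.555. Pon1 contributed a median of 49.0% of a member's score in R1 and 53.5% in R2, so the cells are chosen on Pon1 more than on any of the 3 genes in their name. When members were chosen by the other 4 genes, the left-out gene was higher in them by a ratio of 1.66 in R1 and 1.40 in R2 for Igfbp2, 1.69 and 1.49 for Cldn10, 1.40 and 1.28 for Sfrp5, 1.24 and 1.04 for Sostdc1, and 1.17 and 0.987 for Pon1. Of these ratios, that of Pon1 in R2 was the one below 1, and since the 5 genes were put together with results of these data known, the ratios support nothing about them.

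The markers of RPE cells were found in the score-high cells and in the reference alike. Ttr, 1 of the 8 RPE markers, was fixed by the criteria. Of the 8, all were found in score-high cells of R1 and all but Best1 in those of R2, where Best1, which encodes a chloride channel of the RPE, had 0 UMIs against 3 in R1. The reference held 4 and 9 UMIs of Best1. Transcripts of Rpe65, the retinoid isomerohydrolase, were present in all 309 and 267 members and in all 1818 and 1678 reference cells. Ambient RNA was not subtracted, so a UMI in every cell does not by itself show expression in each. Score-high cells were somewhat deeper than the reference, with a median of 10729 against 10027 UMIs in R1 and 13539 against 11660.5 in R2. Their median number of genes was 2454 against 2349.5 in R1 and 2540 against 2288 in R2, and after each cell was thinned to 5000 UMIs it was 1626 against 1611 and 1543 against 1508. The median share of mitochondrial UMIs was 1.08% against 1.25% in R1 and 1.13% against 1.23% in R2. No cell barcode was shared between members of the mice, against 7 shared among all cells that met the criteria.

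Most lists of markers of other cell types had low sums, with the pericyte and Muller glia lists the highest. Markers given as at 0 had no UMI in the score-high cells of either mouse, and several of them had UMIs in the reference. The 6 fibroblast markers summed to 0.0162 UMIs per 10000 in score-high cells and 0.0227 in the reference of R1, and to 0.0102 and 0.00819 in R2, with Dcn the most abundant and Col1a1, Col3a1, Lum and Pdgfra at 0 in score-high cells. The rod markers found in the files (8 of 9 listed) summed to 0.0568 against 0.0883 in R1 and 0.028 against 0.035 in R2, led by Sag, with Gnat1, Nrl and Cnga1 at 0. The 5 cone markers summed to 0.203 against 0.207 and 0.249 against 0.206, nearly all from Gnat2, and Opn1sw, Opn1mw, Arr3 and Pde6h were at 0 in score-high cells. In the reference Opn1mw had 4 and 3 UMIs, and each of the other 3 genes at most 2 in a mouse. Signals of these photoreceptor and fibroblast genes were therefore a small part of the UMIs in both groups of cells. The 7 endothelial markers summed to 0.241 against 0.128 and 0.104 against 0.121, led by Plvap, with Vwf at 0. A single cell held 59.7% of the 62 Plvap UMIs of the score-high cells in R1, and another marker, Emcn, had its 6 UMIs there in 1 cell. The 6 choroidal melanocyte markers summed to 0.76 against 0.75 and 0.57 against 0.671, led by Sox10, with Pax3 at 0. Of these 5 lists, 0 fibroblast, 3 rod, 1 cone, 2 endothelial and 3 choroidal melanocyte markers could be tested between score-high cells and the reference. None was called, beside 2.07% of all genes, and so few tests say little about the lists. Of the 10 microglia or macrophage markers, which summed to 1.58 against 1.82 and 1.21 against 1.30, Csf1r was the most abundant and Cx3cr1, P2ry12 and Cd74 were at 0 in score-high cells. The 5 pericyte markers summed to 3.32 against 2.57 and 3.04 against 2.65, nearly all from Acta2, with Abcc9 at 0. All 3 pericyte markers tested had a positive log2 fold change, 2 of them with an unadjusted p under 0.05 by edgeR. Kcnj8 was at 0.197 against 0.141 and 0.196 against 0.125 and was not called. Acta2, the smooth muscle actin gene, was the 1 of the 3 called higher in score-high cells, beside 1.22% of all genes. Acta2 was at 3.07 against 2.38 in R1 and 2.78 against 2.47 in R2 (log2 fold change 0.27 ± 0.053, adjusted p = 4.54e-05 by edgeR and 0.0312 by DESeq2). Its UMIs came from 262 and 221 of the score-high cells, and the part of other cell types in its level was not tested. The 7 Muller glia markers summed to 55.4 against 53.2 and 58.5 against 55.8, led by Rlbp1, which the RPE also expresses, with Aqp4 and Kcnj10 at 0 in score-high cells and in the reference. The 14 ciliary epithelium markers summed to 0.9 against 1.34 and 0.894 against 1.00, led by Aldoc, with Zic1, Meg3 and Defb2 at 0.

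To ask what else distinguished the score-high cells, UMIs were summed within each mouse over score-high cells (3699355 in R1 and 3928339 in R2) and over the reference (19823221 and 21989058). The 4 sums were compared with edgeR's quasi-likelihood test with the mouse as a block, and p-values were adjusted over all 11349 genes tested. The 11 genes of both scores were taken out of the test. Replication is 2 mice. With the mouse as a block, 1 residual degree of freedom is left per gene, so the p-values rest mainly on a dispersion estimated over all genes. A small p-value therefore does not measure the spread between the mice. At an adjusted p under 0.05, 235 genes were called (2.07%), of which 138 were higher in score-high cells (1.22%) and 97 lower (0.855%). Most of the called genes, 185 of them, had at least 0.5 UMIs per 10000 in the higher group of each mouse. The shares of all genes given beside list counts below were not limited to genes of like abundance. The changes were small, with a median absolute log2 fold change of 0.26 among the called genes and under 0.5 for 190 of them. It was over 1 for 15 genes, 5 of them higher and 10 lower, all under 0.5 UMIs per 10000 in both groups of each mouse. All but 2 called genes, Gpnmb and Trf, changed in 1 direction in R1 and R2. The count depends on the pairing and on the cells chosen. Without the mouse as a block, edgeR called 0 genes, with 445 at an unadjusted p under 0.05, DESeq2 with the block called 50 (6.35% of the 788 genes to which it gave an adjusted p), and when members were chosen on 1 random part of each cell's UMIs and tested on the other part of equal expected size (the split-UMI test), 43 genes were called.

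Enpp2 and Ndrg2 were higher in score-high cells. Here and below, genes are ranked by fold change among called genes with the same direction in both mice and at least 0.5 UMIs per 10000 in the higher group of each mouse (the level minimum). Enpp2 (chromosome 15, 54838901 to 54952892, minus strand, GRCm38) encodes autotaxin, the secreted enzyme that produces lysophosphatidic acid. It was at 32.4 UMIs per 10000 in score-high cells and 26.1 in the reference of R1, and at 27.8 and 20.4 in R2. Both score-high values lay above both reference values, and the log2 fold change was 0.38 ± 0.028 (SE, n = 2 mice, adjusted p = 3.84e-39). Ndrg2 (chromosome 14, 51905271 to 51914158, minus strand), a member of the N-myc downstream-regulated family, was at 6.76 against 5.01 in R1 and 6.56 against 5.21 in R2. Its groups did not overlap either, and its log2 fold change was 0.38 ± 0.041 (adjusted p = 7.7e-18). Both calls held with DESeq2 and in the split-UMI test.

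Larger fold changes were found in genes with fewer UMIs above the level minimum. Ccnd2 (cyclin D2) was at 0.803 against 0.505 UMIs per 10000 in R1 and 0.621 against 0.457 in R2, a log2 fold change of 0.56 ± 0.10 (adjusted p = 4.43e-06). Vim, which encodes the intermediate filament vimentin, was at 0.792 against 0.521 and 0.98 against 0.682, also 0.56 ± 0.09 (adjusted p = 2.05e-07). Vim is also in the Muller glia list, of which the other markers tested were Glul, the glutamine synthetase gene (0.08, adjusted p = 0.253), and Rlbp1 (0.06, adjusted p = 0.346). All 3 had a positive log2 fold change and an unadjusted p under 0.05, and the part of Muller glia in the Vim result was not tested. Fbln5, which encodes the elastic fiber protein fibulin 5, was at 0.843 against 0.575 in R1 and 0.782 against 0.664 in R2. Rab37, a Rab GTPase of vesicle traffic, was at 1.17 against 0.825 and 1.21 against 0.988. Both had a log2 fold change of 0.39 (adjusted p = 0.00225 and 7.83e-05). The remaining genes with the largest gains were Smu1 (a splicing factor, log2 fold change 0.52), Id1 (0.52, described below), Tm9sf2 (a membrane protein of the secretory pathway, 0.45), Abhd12 (a lysophospholipase, 0.42), Eif3e (a translation initiation factor subunit, 0.36), C1galt1c1 (the chaperone of an O-glycosylation enzyme, 0.36), Adam7 (an ADAM family protein, 0.36) and Oca2 (a melanosomal transport protein, 0.35). A single cell held 16.6% of the Smu1 UMIs of the score-high cells in R1.

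Cox8b changed most among the genes above the level minimum that were lower in score-high cells. Cox8b (chromosome 7, 140898945 to 140900446, minus strand) encodes the isoform of cytochrome c oxidase subunit 8 best known from heart and skeletal muscle. It was at 3.76 UMIs per 10000 in score-high cells and 7.39 in the reference of R1, and at 1.66 and 3.08 in R2. Cox8b differed between the mice as well, and within each mouse score-high cells held about the same fraction of the reference level. The log2 fold change was -0.94 ± 0.049, or 0.523 times the reference level (adjusted p = 1.22e-75). Igfbp5 (chromosome 1, 72857932 to 72874884, minus strand), another binding protein of insulin-like growth factors, was at 1.15 against 2.03 in R1 and 0.817 against 1.02 in R2, a log2 fold change of -0.59 ± 0.074 (adjusted p = 2.71e-12). Its log2 ratio was farther from 0 in R1, a difference between the mice that was not tested. Slc7a5, the large neutral amino acid transporter LAT1, was at 0.8 against 1.16 and 0.529 against 0.743 (-0.51 ± 0.089, adjusted p = 2.81e-06). Aldoc, the brain isoform of the glycolytic enzyme aldolase, was at 0.543 against 0.867 and 0.504 against 0.659 (-0.53 ± 0.098, adjusted p = 1.82e-05). The other genes with the largest falls were Dbndd2 (log2 fold change -0.48), Mlana (a melanosomal protein, -0.46), Aplp1 (an amyloid precursor-like protein, -0.40), Polr3e (a subunit of RNA polymerase III, -0.40), Ppp1r35 (-0.37), Krt23 (a keratin, -0.37), Mtss1 (an actin-binding membrane protein, -0.34), Nog (noggin, -0.34), Nap1l5 (-0.34) and Ahcyl2 (-0.32). With the reference limited to cells high in neither score (1499 and 1386 cells), Aplp1, Nog, Krt23 and Ahcyl2 were no longer called. In that setting 182 genes were called in all.

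**Figure D2:**
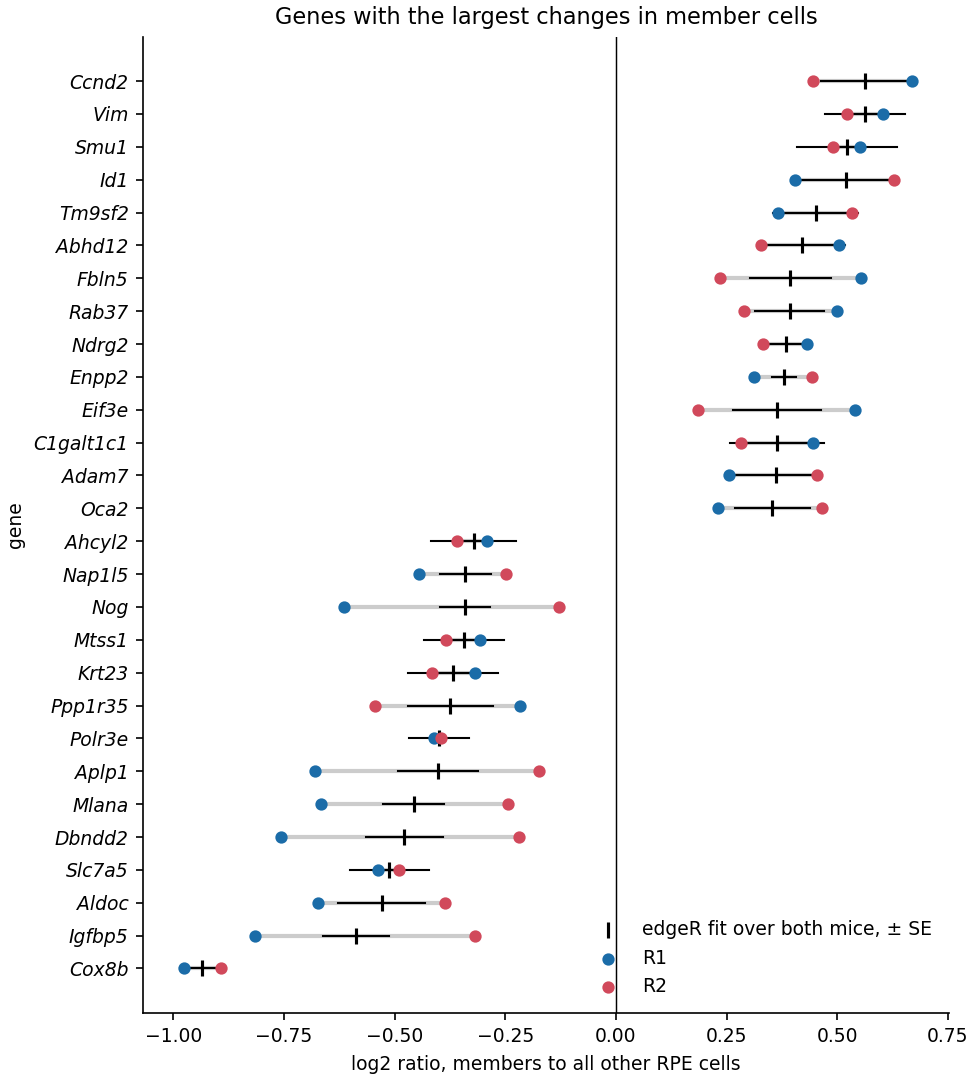
Log2 ratios of score-high cells to all other RPE cells for the 28 genes above the level minimum with the largest changes, by gene (y axis), with 1 point per mouse, a tick for the edgeR estimate over both mice and a line for its SE. All 28 genes changed in the same direction in both mice, and Cox8b at -0.94 is the farthest from 0.

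Several of these genes changed across the whole range of the score, not only at its upper end. Cells outside the top 15% of the second score were placed in 5 bins by percentile of the first score, with the score-high cells as the uppermost, and the values are a description without a test. Enpp2 was at 21.8, 23.7, 26.6, 28.9 and 32.4 UMIs per 10000 from the lowest to the highest bin in R1, and at 18.2, 20.1, 21.1, 21.9 and 27.8 in R2. Ndrg2 was at 4.07, 4.76, 5.20, 5.95 and 6.76 in R1 and at 4.43, 4.91, 5.32, 5.94 and 6.56 in R2. Both genes increased at every step in both mice. Cox8b was at 11.9, 6.63, 6.47, 5.21 and 3.76 in R1 and at 3.63, 3.03, 2.59, 2.50 and 1.66 in R2, a decrease at every step. Nog declined from 2.19 to 1.41 over the bins of R1 but was at 2.54 in the lowest and 2.63 in the highest bin of R2. Depth also differed along the score. Median UMIs were 8177, 10106, 11018, 11551 and 10729 from the lowest to the highest bin in R1 and 9603, 11769, 12606.5, 13849 and 13539 in R2, so that depth was highest in the bin next to the score-high cells, and its part in these trends was not tested.

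**Figure D3:**
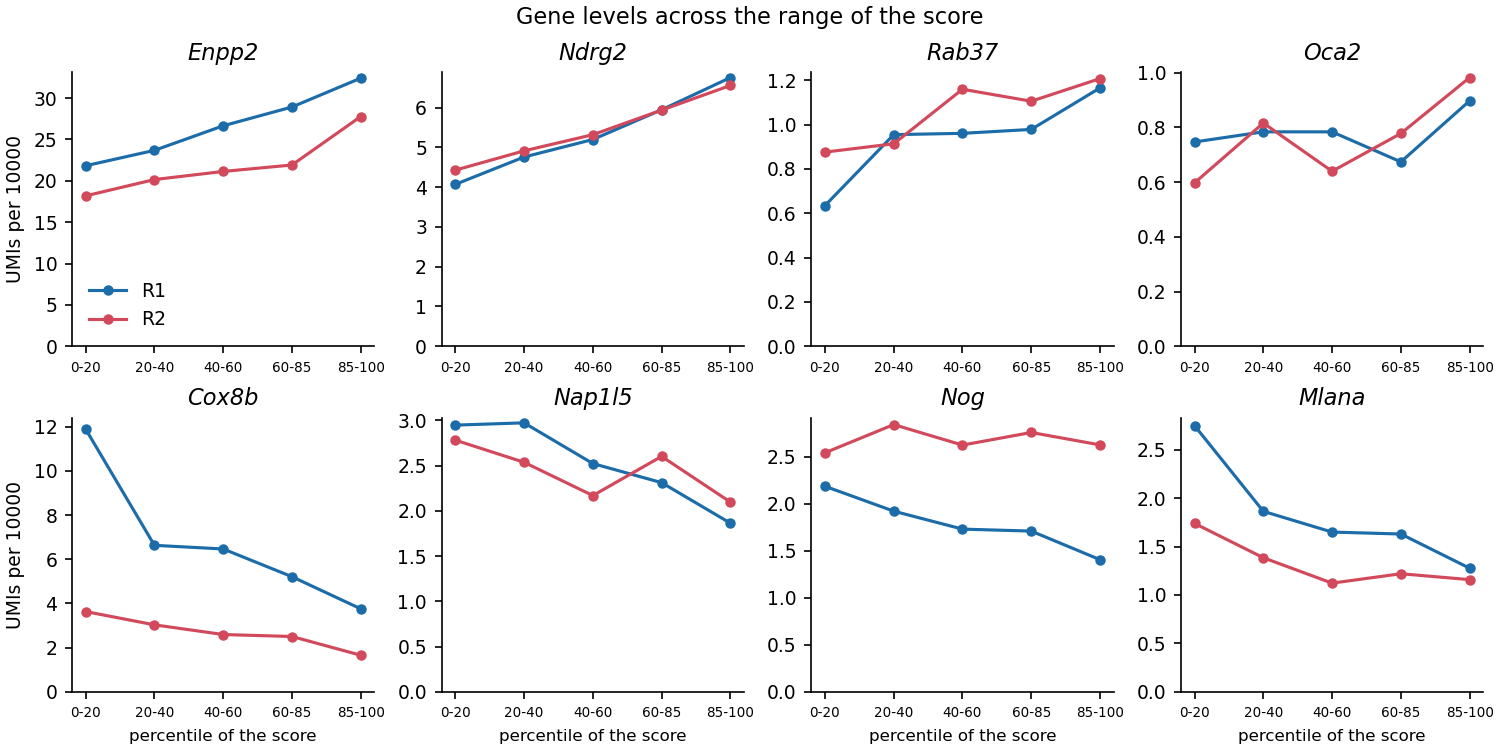
Levels of the 4 most abundant of the named genes that were higher (upper row) and lower (lower row) in score-high cells, in UMIs per 10000 (y axis, from 0), across 5 percentile bins of the score (x axis), with 1 line per mouse. Enpp2 and Ndrg2 increase and Cox8b decreases at every step in both mice, whereas Nog declines in R1 only.

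Several genes of the visual cycle were higher in score-high cells. Of the 11 genes analysed here, 5 were called higher, beside 1.22% of all genes tested, with a median log2 fold change of 0.09, beside -0.00 over all genes. Rpe65 (chromosome 3, 159599175 to 159625321, plus strand) was at 54.2 UMIs per 10000 against 46.5 in R1 and 55.8 against 47.4 in R2. Its score-high values lay above both reference values, with a log2 fold change of 0.23 ± 0.024 (adjusted p = 8.81e-19). Rrh, which encodes the RPE opsin peropsin, was at 5.86 against 4.74 and 5.83 against 4.96 (0.27 ± 0.042, adjusted p = 4.66e-08). Rgr, which encodes a retinal G protein-coupled receptor that binds all-trans retinal, was at 230.4 against 199 in R1 and 256 against 232 in R2 (0.18 ± 0.018, adjusted p = 1.15e-20). Rdh5, the 11-cis retinol dehydrogenase, had a log2 fold change of 0.16 and Stra6, the receptor for retinol-binding protein, one of 0.15. Lrat, which esterifies retinol, was at 14.3 against 14.2 and 15.2 against 15.2 (adjusted p = 0.982), and Rlbp1, the cellular retinaldehyde-binding protein, at 42.7 against 40.8 and 45.2 against 43.9 (adjusted p = 0.346). Ttr, whose minimum was a criterion for all cells, was at 1069 against 1137 in R1 and 1180 against 1269 in R2. It was tested with the other genes and called lower, but its call is not read as a result, since the criteria used its level.

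Pigment genes went in both directions. Of the 15 melanogenesis genes tested, 2 were called higher and 7 lower in score-high cells, beside 1.22% and 0.855% of all genes tested, with a median log2 fold change of -0.13. DESeq2 called 0 in either direction, with 6 at an unadjusted p under 0.05 and an adjusted p for 4 of the 15, and the split-UMI test called 0 higher and 2 lower. Pmel (chromosome 10, 128704195 to 128720238, plus strand), which forms the fibrils of the melanosome, was at 0.141 UMIs per 10000 against 0.444 in R1 and 0.0891 against 0.179 in R2. These values rest on 52 and 35 UMIs in score-high cells, 45.7% of the latter from 1 cell, and the log2 fold change was -1.39 ± 0.18 (adjusted p = 3.97e-11). Trpm1, which encodes a cation channel, was at 0.33 against 0.753 and 0.331 against 0.4 (-0.75 ± 0.12, adjusted p = 7.74e-08). Mlana was at 1.28 against 2.02 in R1 and 1.16 against 1.37 in R2 (-0.46 ± 0.069, adjusted p = 1.58e-08). The log2 ratios of these genes were farther from 0 in R1 than in R2, which was not tested either. Slc45a2, a melanosomal transporter, Dct, the dopachrome tautomerase, and Rab27a, which moves melanosomes, had log2 fold changes of -0.91, -0.22 and -0.22. Gpnmb, a melanosomal glycoprotein, was called at -0.39, yet was at 0.754 against 1.33 in R1 and 0.769 against 0.739 in R2, so its direction differed between the mice. Oca2 was at 0.897 against 0.765 and 0.983 against 0.712, and Gpr143, a melanosomal receptor, at 1.04 against 0.829 and 0.967 against 0.837, with log2 fold changes of 0.35 and 0.27. Tyr, the tyrosinase that starts melanin synthesis, was at 2.59 against 2.35 and 1.96 against 1.82 (adjusted p = 0.351). With the reference limited to cells high in neither score, 3 of the 7 lower calls held, Pmel at -1.005, Trpm1 at -0.46 and Mlana at -0.37, as log2 fold changes. In that setting 1 melanogenesis gene was called higher, against 2 with all other cells as the reference. In the ciliary epithelium list the median log2 fold change was -0.53 over the 7 markers tested, and 2 of them had a positive value. Of the 7, 1 was called lower, Aldoc (-0.53), and 0 higher, beside 0.855% and 1.22% of all genes tested. Pax6, an eye transcription factor gene (-1.04, adjusted p = 0.383), and Dkk3, which encodes a secreted protein of the Dickkopf family (-0.82, adjusted p = 0.0693), were not called. The part of the ciliary epithelium markers in the pigment result was not tested.

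All called transcripts of the mitochondrial genome were lower in score-high cells. Their share of UMIs, at most 5%, was a criterion for all cells of both groups, so the tests were run within that limit. Of the 10 tested, 4 were called lower, beside 0.855% of all genes tested, and 0 higher, none had a positive log2 fold change, and the median was -0.18. DESeq2 called 3 lower and 0 higher. mt-Cytb, the cytochrome b subunit of complex III, was at 42.9 UMIs per 10000 against 50.2 in R1 and 44.9 against 49.2 in R2 (-0.18 ± 0.024, adjusted p = 3.01e-10). mt-Nd1, a subunit of complex I, was at 20.4 against 23.8 and 26.8 against 30.9 (-0.21 ± 0.028, adjusted p = 2.2e-11). The called genes mt-Nd4 and mt-Nd2 had log2 fold changes of -0.18 and -0.14. Depth moved with this result, and against reference cells of like UMI counts mt-Nd1 (-0.16) and mt-Cytb (-0.11) were still called, while mt-Nd4 (-0.10) and mt-Nd2 (-0.08) were not. The median of the list against these matched cells was -0.12. With every cell thinned to 5000 UMIs and the score-high cells chosen again, 5 were called lower and 0 higher, with a median of -0.22. The cells then chosen had medians of 10939.5 and 13879 UMIs before thinning, against 10099 and 11882 in all cells. Thinning therefore did not match the cells on their original depth.

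**Figure D4:**
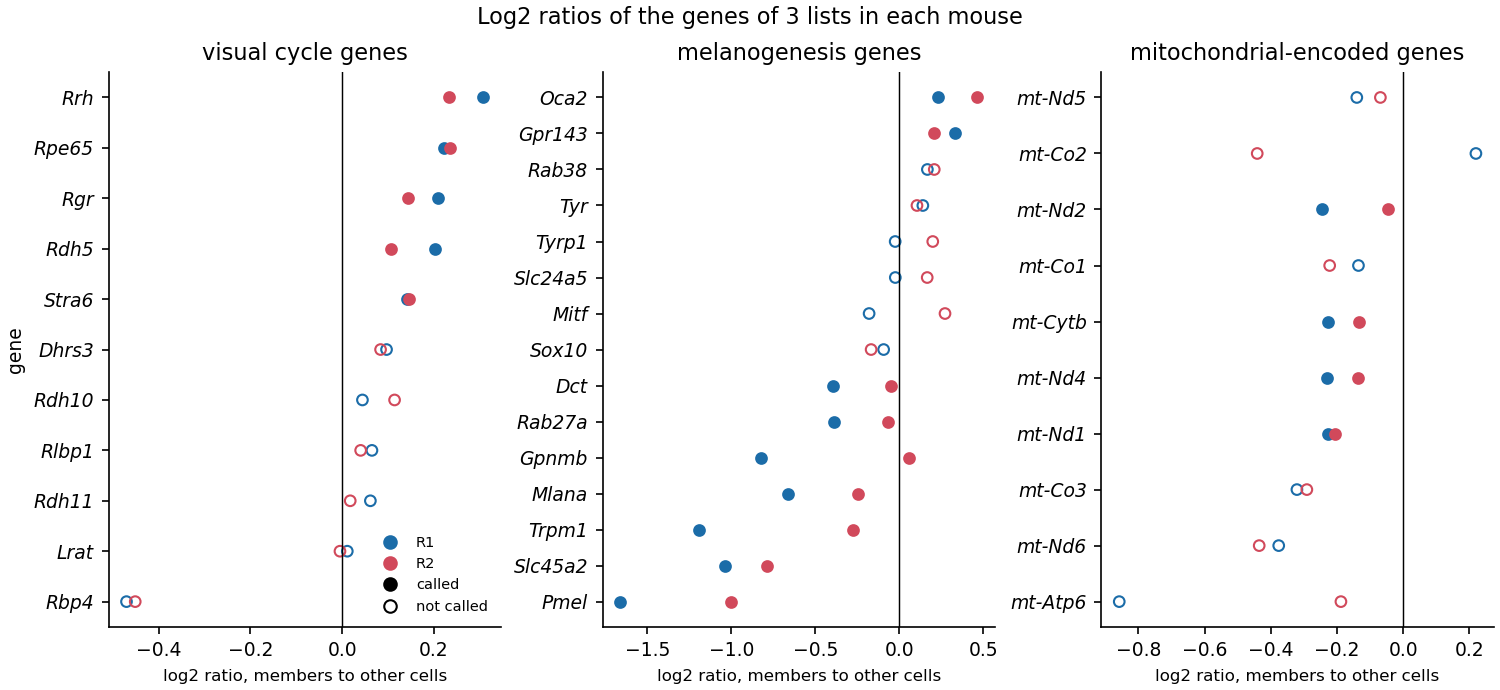
Log2 ratios of score-high cells to all other RPE cells (x axis) for the genes of the visual cycle, melanogenesis and mitochondrial-encoded lists analysed here (y axis), with 1 point per mouse, filled where the gene was called. Of the called genes, all 5 visual cycle genes shown lie above 0, 7 of 9 melanogenesis genes have a negative fold change over both mice and all 4 mitochondrial genes lie below 0.

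Of the 11 genes of the insulin-like growth factor list that were tested, 2 were called, beside 2.07% of all genes tested. Htra1, a secreted protease that cleaves such binding proteins, was called higher and Igfbp5 lower. Htra1 was at 0.403 UMIs per 10000 against 0.245 in R1 and 0.4 against 0.301 in R2 (log2 fold change 0.56 ± 0.13, adjusted p = 0.00351). The abundant binding protein gene Igfbp7 was at 9.29 against 9.15 and 11.6 against 11.2 (adjusted p = 0.777), and the receptor gene Igf1r at 1.09 against 1.05 and 1.00 against 0.947 (adjusted p = 0.841). The median log2 fold change of the list was 0.04 by edgeR and -0.335 by DESeq2, so its sign depended on the tool. DESeq2 called 0 of the 11, with 2 at an unadjusted p under 0.05 and an adjusted p for 1. Of 23 Wnt genes tested by edgeR, 0 were called in either direction, 1 had an unadjusted p under 0.05, and the median log2 fold change was -0.09. DESeq2 called 0 as well but gave an adjusted p for only 1 of them. Among these, the Wnt antagonist gene Sfrp1 was at 2.32 against 2.12 and 1.95 against 1.89 (adjusted p = 0.631), the receptor gene Fzd4 at 0.97 against 0.962 and 1.05 against 0.951 (adjusted p = 0.825), and Ctnnb1, which encodes beta-catenin, at 1.61 against 1.70 and 1.36 against 1.41 (adjusted p = 0.842).

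In the BMP and TGF-beta list, 2 of 31 genes tested were called higher and 1 lower, beside 1.22% and 0.855% of all genes tested, with a median log2 fold change of 0.08. DESeq2 called 0 of the 31, with 2 at an unadjusted p under 0.05 and an adjusted p for 4, and the split-UMI test called 0 of 27, with 3 at an unadjusted p under 0.05. Id1 (chromosome 2, 152736251 to 152737410, plus strand), a BMP-induced inhibitor of helix-loop-helix factors, was at 0.692 UMIs per 10000 against 0.523 in R1 and 0.697 against 0.452 in R2. Its score-high values lay above both reference values (log2 fold change 0.52 ± 0.10, adjusted p = 4.34e-05). In cells under 5000 UMIs, divided by the same rule, Id1 was at 0.223 against 0.455 in R1 and 0.316 against 0.549 in R2, the opposite direction (log2 fold change -0.83 ± 0.44, adjusted p = 0.95). Its relative Id3 was at 2.74 against 2.34 and 1.53 against 1.37 (0.20 ± 0.06, adjusted p = 0.0411). Nog (chromosome 11, 89300638 to 89302332, minus strand), which encodes the BMP antagonist noggin, was at 1.41 against 2.15 in R1 and 2.63 against 2.87 in R2 (-0.34 ± 0.057, adjusted p = 1.04e-06). Cells high in neither score held 1.83 and 2.71 of Nog. Against such cells alone, the log2 fold change was -0.19 for Nog and 0.06 for Id3, neither of them called, and 0.35 for Id1, which was called. The ligand gene Bmp4 was at 2.85 against 2.83 and 2.14 against 2.32 (adjusted p = 0.858), Bmp2 at 0.819 against 0.723 and 0.957 against 0.741 (adjusted p = 0.0551), and Id2 at 4.81 against 4.67 and 3.57 against 3.74 (adjusted p = 0.983). Of 16 genes of axial and regional eye patterning tested by edgeR, 0 were called and 2 had an unadjusted p under 0.05, and DESeq2 called 0, with an adjusted p for 1. They included the transcription factor genes Otx2 (4.41 against 4.66 and 4.43 against 4.14, adjusted p = 0.973) and Sox9 (1.47 against 1.46 and 1.38 against 1.36, adjusted p = 0.975).

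Transport and secretion genes of the RPE gave more calls in the direction of higher levels. Of 22 channels, pumps and transporters tested, 6 were called higher and 1 lower, beside 1.22% and 0.855% of all genes tested, with a median log2 fold change of 0.08. DESeq2 called 4 higher and 0 lower. Kcnj13, the apical potassium channel Kir7.1, was at 15.6 UMIs per 10000 against 12.3 in R1 and 12.7 against 11.1 in R2 (0.27 ± 0.033, adjusted p = 1.01e-13). The others were Atp1b1 (a sodium pump subunit, 0.18), Slc16a8 (the lactate transporter MCT3, 0.16), Slc6a13 (a GABA and taurine transporter, 0.18), Slc6a20a (a proline transporter, 0.19) and Car14 (a membrane carbonic anhydrase, 0.13). Slc4a5, a sodium bicarbonate cotransporter, was the gene called lower (-0.18), at 3.16 against 3.77 and 2.85 against 3.06. Of 19 lipid genes, 3 were called higher (of all genes, 1.22%) and 0 lower, namely Enpp2, Apoe and Pltp. Apoe, the apolipoprotein E gene, was at 211 against 181 in R1 and 184 against 163 in R2 (0.20 ± 0.018, adjusted p = 8.4e-23), and Pltp, the phospholipid transfer protein gene, at 12.8 against 10.8 and 13.0 against 10.9 (0.26 ± 0.033, adjusted p = 1.52e-11). DESeq2 called the same count of 3 lipid genes higher.

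Beside the 1.22% of all genes called higher and 0.855% called lower by edgeR stand the counts of further lists. Of 27 matrix and secreted factor genes, 4 were called higher and 0 lower by edgeR and 2 and 0 by DESeq2, with a median of 0.06. Clu, which encodes the secreted chaperone clusterin, was at 98.7 UMIs per 10000 against 81.8 in R1 and 95.3 against 80.1 in R2 (0.26 ± 0.021, adjusted p = 2.89e-31). The other calls were Fbln5, Bsg, which encodes basigin (0.12), and Cyr61, a matricellular protein gene (0.45). Timp3, a metalloproteinase inhibitor gene, was at 30.5 against 30.2 and 29.7 against 29.3 (adjusted p = 0.88). Of 20 phagocytosis and lysosome genes, 3 were called higher and 0 lower by edgeR and 1 and 0 by DESeq2, with a median of 0.09. Ctsd, the lysosomal protease cathepsin D, was at 33.9 against 28.2 and 34.6 against 29.9 (0.24 ± 0.026, adjusted p = 5.33e-17), and the lysosomal membrane protein genes Lamp1 and Lamp2 had log2 fold changes of 0.20 and 0.24.

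Metallothioneins were lower. Of 13 metal and iron genes tested, Mt1, Mt2 and Mt3 were called lower and Trf higher by edgeR, beside 0.855% and 1.22% of all genes, and 2 lower and 0 higher by DESeq2. Mt1 was at 124 UMIs per 10000 against 143 in R1 and 113 against 126 in R2 (-0.18 ± 0.02, adjusted p = 2.13e-15). Mt2 was at 28.4 against 33.3 and 23.2 against 26.1 (-0.20 ± 0.027, adjusted p = 5.1e-10), and Mt3 had a log2 fold change of -0.11. Trf, the transferrin gene, was at 129 against 129 in R1 and 129 against 118 in R2, and its call (0.07, adjusted p = 0.0371) rested on R2. The ferritin gene Fth1 was at 32.0 against 33.9 and 41.8 against 42.3 (adjusted p = 0.543). Of 30 antioxidant genes, the Pon1 relatives Pon2 and Pon3 among them, and of 15 junction genes, edgeR and DESeq2 called 0, with 3 and 1 at an unadjusted p under 0.05 by edgeR and an adjusted p by DESeq2 for 13 and 1. Of the nuclear-retained RNAs, Malat1 was lower, at 128 against 141 and 146 against 157 (-0.12 ± 0.019, adjusted p = 4.55e-07).

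Some calls of rare genes rested on very few cells. Of 5 microglia or macrophage markers tested, 3 were called lower in score-high cells, C1qa, C1qc and Lyz2, beside 0.855% of all genes. They had 2, 0 and 3 UMIs in score-high cells of R1 and 0, 1 and 0 in those of R2. In the reference they came from 9, 9 and 8 cells of R1 and 3, 2 and 4 cells of R2, and single cells held 88.4% and 91.8% of the Lyz2 UMIs. The calls with the largest positive fold changes were of the same kind, and their genes were chosen after the values were seen. Iigp1, an interferon-induced GTPase gene, had 11 and 6 UMIs in score-high cells, from 3 cells of R1 and 1 cell of R2, and 0 in the reference. Psmb9, an immunoproteasome subunit gene, had 33 and 5 UMIs in score-high cells, with 93.9% of those in R1 from 1 cell, and 4 and 17 in the reference. Of 13 genes tested in the dissociation response list, 1 was called lower, Cxcl2, beside 0.855% of all genes. Its reference UMIs came from 18 and 12 cells, with 74.7% of those in R2 from 1 cell. With cells that hold 3 or more markers of another cell type left out, edgeR called 0 of the 1 microglia marker and 0 of the 12 dissociation response genes that could be tested, none with an unadjusted p under 0.05, and 196 genes in all. Iigp1 and Psmb9 were still called in that setting. With 0 UMIs of Iigp1 in the reference and 93.9% of the R1 score-high UMIs of Psmb9 in 1 cell, nothing is concluded from these calls.

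The Serpine3-score-high cells are the class chosen most like the score-high cells, and the classes were compared directly. Serpine3-score-high cells were shallower, with a median of 8614 UMIs in R1 and 9149 in R2, and their sums held 2868068 and 2773723 UMIs. Of 9597 genes tested by edgeR, 301 were called (3.14%), 116 higher in score-high cells (1.21%) and 185 lower (1.93%), and 72 had an absolute log2 fold change over 1. DESeq2 called 44 (1.52% of the 2899 genes to which it gave an adjusted p). This comparison uses the same score-high sums as the one above, so its values stand beside those and are not independent of them.

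Id1 had the largest positive log2 fold change between the classes among the genes above the level minimum. It was at 0.692 UMIs per 10000 in score-high cells and 0.118 in Serpine3-score-high cells of R1, and at 0.697 and 0.144 in R2. Cells high in neither score held 0.594 and 0.503, nearer to the score-high level. The log2 fold change was 2.39 ± 0.19 (adjusted p = 4.69e-11). Id3 was at 2.74 against 0.711 and 1.53 against 0.649 (1.60 ± 0.12, adjusted p = 5.85e-12), and Id2 at 4.81 against 2.37 and 3.57 against 2.34 (0.80 ± 0.08, adjusted p = 6.29e-09). Nog was at 1.41 against 3.94 and 2.63 against 3.89, a log2 fold change of -1.02 ± 0.11 (adjusted p = 2.13e-08). Of 26 BMP and TGF-beta genes tested here, these were the 3 called higher and the 1 called lower in score-high cells, beside 1.21% and 1.93% of all genes. Id1, Id2 and Id3 were thus lower and Nog higher in the Serpine3-score-high cells of both mice. Ccnd2 (1.62), Rab37 (1.29), Fbln5 (1.05) and Pdlim2, an actin-associated protein gene (0.98), were, with Id1 and Id3, the 6 genes above the level minimum with the largest positive log2 fold changes. Igf2, an insulin-like growth factor gene under the level minimum, was at 0.224 against 0.0767 and 0.234 against 0.115 (1.25 ± 0.29, adjusted p = 0.0086). After thinning to 5000 UMIs, with both classes chosen again, Igf2 was no longer called (log2 fold change 0.74, adjusted p = 0.359).

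The called pigment and mitochondrial transcripts were lower in score-high than in Serpine3-score-high cells. The exception came with cells thinned to 5000 UMIs and both classes chosen again, where 1 melanogenesis gene was called higher, beside 7 lower. Pmel was at 0.141 against 0.893 UMIs per 10000 in R1 and 0.0891 against 0.537 in R2 (log2 fold change -2.65 ± 0.19, adjusted p = 5.85e-12). Trpm1 (-1.83), Cox8b (-1.52), Aplp1 (-1.51), the unnamed transcript 1700018L02Rik (-1.46) and Dbndd2 (-1.25) were the other genes above the level minimum with the largest negative values. Of 15 melanogenesis genes, 8 were called lower and 0 higher, beside 1.93% and 1.21% of all genes tested, with a median of -0.39 beside -0.00 over all genes. Dct was at 6.57 against 13.1 and 5.95 against 7.76 (-0.71 ± 0.077, adjusted p = 2.64e-08). Of 10 mitochondrial transcripts, 6 were called lower (of all genes, 1.93%) and 0 higher, with a median of -0.43. Of 11 visual cycle genes analysed here, 4 were called higher (of all genes, 1.21%), with Rpe65 at 54.2 against 43.2 and 55.8 against 46.7 (0.28 ± 0.039, adjusted p = 6.85e-06). Kcnj13 was at 15.6 against 10.2 and 12.7 against 10.2 (0.44 ± 0.057, adjusted p = 1.09e-06). Igfbp5 (-1.22) and Igfbp6 (-1.46), and among the Wnt genes Dkk3 (-1.83), were called lower. The ciliary epithelium markers Pax6 (-2.25), Dkk3 and Aldoc (-1.17) were called lower as well, on 7 and 7 UMIs of Pax6 in score-high cells.

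**Figure D5:**
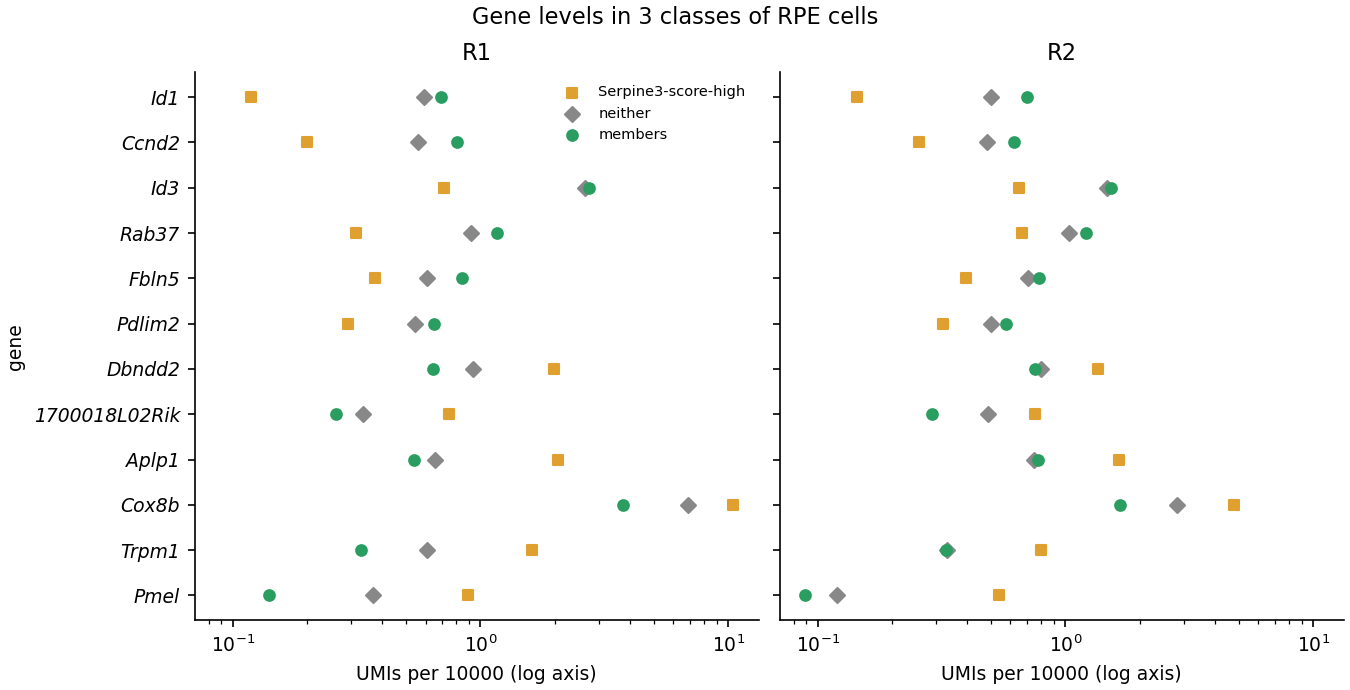
Levels in UMIs per 10000 (x axis, log scale) of the 12 genes above the level minimum with the largest differences between score-high and Serpine3-score-high cells, in these classes and in cells high in neither score, with 1 panel per mouse. Id1 and Id3 of score-high cells lie nearer to those of cells high in neither score than to those of Serpine3-score-high cells, and Cox8b and Pmel have their lowest value in score-high cells in both mice.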

How the data were processed

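RPE cells of 2 male C57BL/6J mice were measured. The authors processed the reads with bcl2fastq 2.20.0.422 and Cell Ranger 1.2.0 (per the submitters' processing notes, on GRCm38) and deposited UMI counts per gene and cell, without normalization, over 27998 genes. Counts of R1 and R2 were compared over 13384 genes, and the chi-square was 19.6 times its degrees of freedom, so the mice are separate libraries. Ambient RNA was not subtracted and no doublet caller was run, and leaving out cells over 20000 UMIs was an alternative.

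The members and all gene lists were chosen with earlier results of these data known. Cells of a mouse were summed, since cells are not replicates, and sums of the same mouse are paired because they come from the same animal. Gene names and positions follow GENCODE vM21. edgeR 4.0.16 in R 4.3.3 was used (TMM, filterByExpr, quasi-likelihood test, Benjamini-Hochberg adjustment, threshold 0.05). SE is the absolute log2 fold change divided by the square root of F, so it rests on the same dispersion over all genes as the p-values. DESeq2 1.42.0 was an alternative. The steps were tested on simulated data with the means, library sizes and common dispersion of the real sums. With no change put in, 0 genes were called. At a log2 change of 0.25 in 200 genes, edgeR recovered 3% in the first comparison and 0% in the second. At 0.5 it recovered 40.5% and 11%, and at 1 it recovered 76% and 70%. DESeq2 recovered 0%, 12% and 45% in the first comparison. A gene without a call is therefore not shown to be unchanged. Levels are summed UMIs of a gene per 10000 summed UMIs. Median depth was 10099 UMIs in the cells of R1 that met the criteria and 11882 in R2, so genes under 1 UMI per 10000 rest on few UMIs per cell. Genes named are the 14 that gained most and the 14 that lost most by fold change among called genes with the same direction in both mice and at least 0.5 UMIs per 10000 in the higher group of each mouse, the 6 and 6 by the same rule in the second comparison, and called or abundant genes of the lists. Results of some genes are not reported here.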

Additional observations from a re-analysis of the deposited data

Results flagged for a closer look

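The cells with fewer than 5000 UMIs, which were outside the members and the reference, also held the score genes. In the 596 such cells of R1 that met the other criteria the 5 genes summed to 21.34 UMIs per 10000, and in the 1002 cells of R2 to 27.42. Median depth was 3639.5 and 3496.5 UMIs. The same rule, applied to these cells after the data had been seen, chose 88 and 132 of them. Between these and the other shallow cells edgeR called 4 genes, Hspa5, Psmd14, Clk4 and Pmel, and Pmel had a log2 fold change of -2.13. Cox8b was at -0.86, with an adjusted p of 0.055.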

How the results depend on the processing

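With score-high cells set against all other cells, 235 genes were called, and 50 with DESeq2, which gave an adjusted p for 788 genes, 0 with no replicate block (no pairing by mouse), 111 with cells thinned to 5000 UMIs, 128 with reference cells matched on UMIs, 43 in the split-UMI test, 84 with Pon1 left out of the score and 4 in cells under 5000 UMIs. Without a filter on low counts 187 were called, 47.6% of them higher, against 58.7% as reported. In the other 11 settings the count was 166 to 269. Against Serpine3-score-high cells 301 were called, and 44 with DESeq2, 64 with no replicate block and 173 after thinning. The causes were not tested. After thinning the classes were chosen again, and 75.1% of the members of R1 and 72.7% of those of R2 were among the cells then chosen. All 28 genes with the largest changes kept their sign in every setting but the cells under 5000 UMIs, where 20 did. Of these 28, 4 were still called by DESeq2 (Ndrg2, Enpp2, Cox8b and Nap1l5) and 6 in the split-UMI test. Leaving out a mouse leaves no residual degrees of freedom, so it gives fold changes and no calls. Log2 fold changes that reversed were, in cells under 5000 UMIs, Id1 (-0.83), Adam7 (-0.10), Oca2 (-0.036), Aldoc (0.061), Polr3e (0.070), Ppp1r35 (0.058), Nog (0.0086), Nap1l5 (0.093), Ttr (0.056) and Cyr61 (-0.10), and Trf without Pon1 in the score (-0.043). Leaving out each mouse in turn gave -0.0040 to 0.13 for Trf, the lower without replicate 2, and -0.82 to 0.056 for Gpnmb, the higher without replicate 1.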

Other observations

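Further called genes outside the lists and the naming rule were chosen after their values were seen. A pair of chaperone genes was higher in score-high cells, with Hspa5 (BiP) at 5.92 UMIs per 10000 against 4.38 in R1 and 3.26 against 2.85 in R2 (edgeR log2 fold change 0.32, adjusted p = 1.17e-09) and Hspa8 at 12.2 against 11.1 and 7.22 against 6.37 (0.16, adjusted p = 0.00159). The simple epithelial keratins Krt8 (3.89 against 3.26 and 3.48 against 2.91, log2 fold change 0.26) and Krt18 (22.6 against 19.9 and 22.2 against 19.8, 0.18) were higher too. Ntrk2, the receptor for brain-derived neurotrophic factor, was at 2.45 against 1.84 in R1 and 2.64 against 2.21 in R2 (0.34, adjusted p = 8.64e-07). Ins2, an insulin gene, was at 1.79 against 1.37 and 1.84 against 1.51 (0.34, adjusted p = 3.18e-05).

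Nuclear-encoded mitochondrial genes went in both directions. Atp5b, an ATP synthase subunit, was at 9.79 UMIs per 10000 against 8.24 in R1 and 9.59 against 8.57 in R2 (log2 fold change 0.21), the phosphate carrier gene Slc25a3 had a log2 fold change of 0.22 and Acadvl and Acaa2, enzymes of fatty acid oxidation, 0.24 and 0.28. The complex I subunit genes Ndufa2 and Ndufb10 were lower, at -0.17 and -0.18, as was Chchd10 at -0.16. These genes were picked for their values, and no list of them was tested. Myrf, a transcription factor gene, was lower, at 1.89 against 2.36 in R1 and 1.87 against 2.26 in R2 (-0.29, adjusted p = 0.000129).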
